A study of Mus musculus with 9 samples.

Results

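Squamous and stress keratins are the keratins that stratified epithelia add to, or put on top of, the keratins of their basal layer. The 7 genes described here, Krt1, Krt10, Krt4, Krt13, Krt6a, Krt6b and Krt16, were chosen as a list of names, out of 23366 gene entries of which 52 are keratins. Each was found as a single entry, and its level was followed in 9 libraries of RNA from cultured mouse cells. Of the libraries, 6 came from mSGc, a spontaneously immortalized epithelial line from the submandibular salivary gland of an adult male C57BL/6 mouse, grown as monolayers. There was 1 library per condition: passage (P) 2, 4, 10 and 25 in serum-free medium (SFM), and passage 10 and 25 in serum-containing medium (SCM). SFM contains dexamethasone, EGF and FGF. SCM contains fetal bovine serum, retinoic acid, hydrocortisone, triiodothyronine and EGF. In the labels the media are called Progenitor and Differentiating, which were read as SFM and SCM, since the study describes the earliest passages in SFM alone. The other 3 libraries are replicates of IMOK, immortalized oral keratinocytes, also labelled C57BL/6, of early passage and in their own medium, whose composition is not given in the sources used here. The labels do not say whether replicates came from separate cultures, so a p-value here measures only the spread between these libraries, which may be technical.

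Keratins form filaments only as pairs of a type I and a type II protein. Krt1 and Krt10 are the type II and type I pair of the suprabasal epidermis, where they replace Krt5 and Krt14 as cells leave the basal layer. Krt4 and Krt13 are the corresponding pair of moist, non-cornified mucosa such as the oral lining and the oesophagus. Krt6a and Krt6b, which are near-identical type II keratins, and their type I partner Krt16 are induced after wounding and in hyperproliferative epithelia, and are also made constitutively in the tongue, the palate and the hair follicle.

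Total counts ran from 6237884 to 17089965 in the mSGc libraries and from 16848411 to 18444963 in IMOK. Levels are given as TPM, which scales a count by gene length and by library, computed from the counts and the deposited gene lengths so that genes can be compared, and a count of 0 allows up to 3 counts. All 9 libraries carried the basal epithelial markers Krt5, Krt14, Trp63 and Itga6, with summed levels of 8105 to 18654 TPM in mSGc and 7847 to 8595 TPM in IMOK. The summed level of 6 fibroblast markers was at most 22.2 TPM, that of 5 leukocyte markers at most 0.492 TPM, with Cd52 and Cd3e at 0 in every library, and that of 3 endothelial markers at most 0.863 TPM. Acinar markers, 5 in number, summed to 14.0 to 83.7 TPM in mSGc, the salivary line, and to 213 to 331 TPM in IMOK. Of them only Aqp5 was higher in every IMOK library than in every mSGc library. In IMOK replicate 1 the sum was nearly all Aqp5, at 213 TPM, with Pip and Bpifa2 at 0 TPM and Amy1 at 0.129 TPM. In replicates 2 and 3, Bpifa2 stood at 158 and 175 TPM and Pip at 39.2 and 31.5 TPM. Pip reached 59.1 TPM in mSGc, at P4 in SFM. IMOK replicate 1 also stood apart from replicates 2 and 3 in the smooth muscle actin gene Acta2, at 880 TPM against 7.08 and 13.8 TPM. In these bulk samples a larger share of cells making a keratin and more RNA per cell cannot be told apart.

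**Figure D1:**
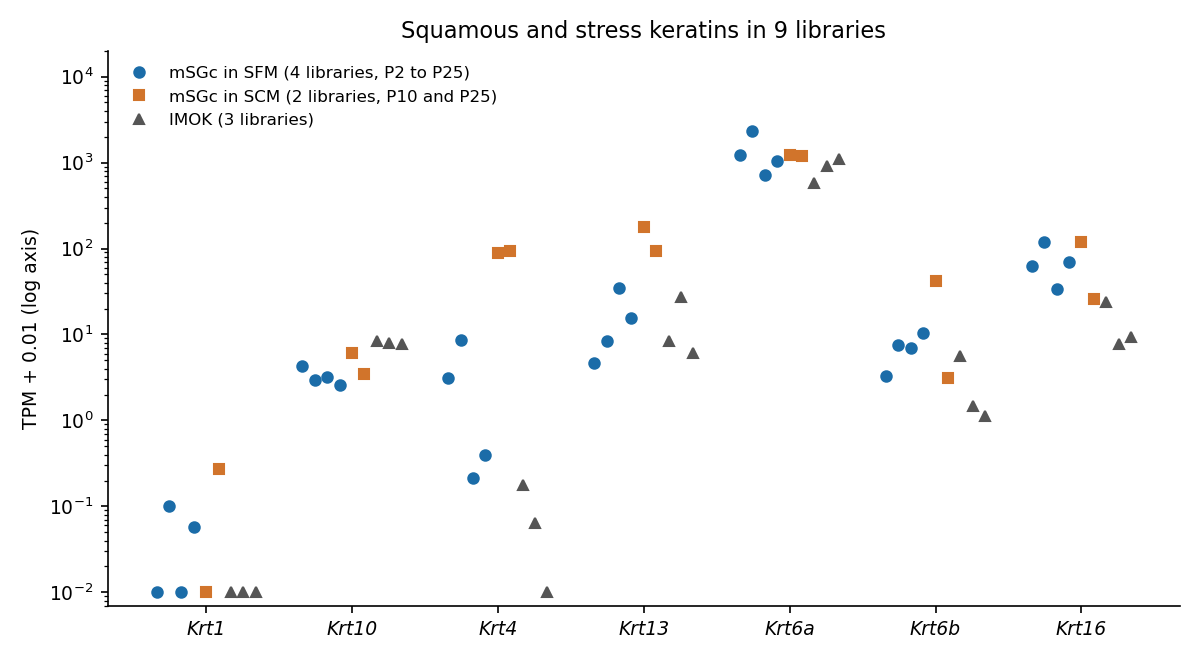
Level of each keratin in each library, in TPM on a log axis after a small constant was added so that 0 can be drawn; circles are the 4 mSGc libraries in SFM in the order P2, P4, P10, P25, squares the 2 mSGc libraries in SCM and triangles the 3 IMOK replicates, with no mean or error bar. Krt6a lies between 581 and 2307 TPM everywhere, Krt1 at or under 0.260 TPM, and Krt4 reaches 88.2 and 94.8 TPM only in the SCM libraries.

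Of the epidermal pair, Krt1 was not detectable and Krt10 was low in both lines. Krt1 (mm9 chr15:101675857-101681217, minus strand) had 0 to 2 counts in the mSGc libraries and 0 in the 3 IMOK libraries. Its highest level, 0.260 TPM in P25 SCM, was under the 0.390 TPM that 3 counts are worth in that library, so Krt1 was not detectable at this depth, and it did not pass the filter on low counts of the main fits. Krt10 (chr11:99246569-99250678, minus strand) was detected in every library at a low level.

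In SFM, Krt10 stood at 4.24, 2.93, 3.22 and 2.59 TPM at P2, P4, P10 and P25. In SCM it stood at 6.04 and 3.50 TPM at P10 and P25. In the 3 IMOK replicates it stood at 8.35, 7.98 and 7.75 TPM. Every IMOK value lay above every mSGc value, and the IMOK replicates were close to each other. The mean was 3.75 ± 1.25 TPM (SD, n = 6) in mSGc and 8.03 ± 0.306 TPM (SD, n = 3) in IMOK. Its type II partner Krt1 was not detectable beside it.

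The mucosal pair Krt4 and Krt13 differed most between conditions. Krt4 lies at chr15:101748966-101755166 and Krt13 at chr11:99978910-99982809, both on the minus strand of mm9, and the 250 bases before the start of each are shown because both genes were higher in SCM at both passages. They are in NCBIM37 (mm9) sequence, 5′ to 3′ on the gene's strand. Capitals mark matches to a loose AP-1 pattern (TGANTCA), the AP-2 motif (GCCNNNGGC) and the hexamer of nuclear receptors (AGGTCA), where N is any base. For Krt13 the window ends at the RefSeq start, since the deposited model begins at the first codon.
Krt4, chr15:101755167-101755416: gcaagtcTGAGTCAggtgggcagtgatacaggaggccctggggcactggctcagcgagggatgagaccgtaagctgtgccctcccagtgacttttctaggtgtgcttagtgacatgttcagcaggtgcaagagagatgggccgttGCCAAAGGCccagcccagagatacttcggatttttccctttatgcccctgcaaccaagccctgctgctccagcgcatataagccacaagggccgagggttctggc
Krt13, chr11:99982881-99983130: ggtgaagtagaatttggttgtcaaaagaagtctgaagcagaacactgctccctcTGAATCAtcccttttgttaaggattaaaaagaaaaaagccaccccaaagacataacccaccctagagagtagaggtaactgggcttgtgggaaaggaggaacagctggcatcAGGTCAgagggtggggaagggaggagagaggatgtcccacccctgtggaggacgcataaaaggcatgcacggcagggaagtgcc
The AP-1 letters began 243 bases before the Krt4 start, as TGAGTCA, and 196 bases before the Krt13 start, as TGAATCA. The AP-2 letters began 105 bases before the Krt4 start, and the hexamer 84 bases before the Krt13 start. On either strand, and with no overlap between these matches, the motifs were held by 6.12% (AP-1), 16.1% (AP-2) and 12.3% (hexamer) of 23306 windows of the same length before gene models. Among the other 5 keratins, AP-1 and AP-2 letters were in none of the windows, the hexamer was in that of Krt6b, and TATAAA, held by 12.1% of all windows, was in those of Krt10 and Krt16. A match is a description of the letters and not evidence of a site in use.

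In SFM, Krt4 stood at 3.10, 8.51, 0.204 and 0.386 TPM at P2, P4, P10 and P25, from 35, 163, 2 and 7 counts. In SCM it stood at 88.2 TPM at P10 and 94.8 TPM at P25, from 1191 and 635 counts. The IMOK replicates held 3, 1 and 0 counts, or 0.165, 0.0544 and 0 TPM, at or under the limit that a count of 0 allows. The SCM libraries were thus far above all others, the early SFM libraries were intermediate, and the later SFM libraries were close to IMOK. P10 in SFM did not clear the limit of 0.306 TPM set by 3 counts.

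Krt13 was present in every library. In SFM it stood at 4.60, 8.31, 34.4 and 15.5 TPM at P2, P4, P10 and P25, and in SCM at 179 and 94.3 TPM at P10 and P25. The IMOK replicates gave 8.31, 27.1 and 6.08 TPM, a 4.46-fold range within 1 group. The SCM libraries were again the highest, while the SFM libraries and IMOK overlapped. The deposited Krt13 model spans little more than its coding sequence, while that of Krt4 extends past it at both ends. A ratio of their levels per length therefore sets unlike models side by side. In SCM the type I to type II ratio of the pair, Krt13 over Krt4 in TPM, was 2.03 at P10 and 0.994 at P25. In SFM it was 1.48 at P2 and 0.976 at P4. At P25 in SFM, with 7 counts of Krt4, it was 40.1, and in IMOK and at P10 in SFM no ratio was formed because Krt4 was at or under 3 counts.

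Of the stress keratins, Krt6a was the most abundant by far. Krt6a and Krt6b lie 1 behind the other at chr15:101520359-101524736 and chr15:101506454-101510720 on the minus strand, and their reads are hard to keep apart. Over the 7 internal coding exons of equal length, 919 bases in all, the models differed at 22 positions, an identity of 97.6%. The sequence of exon 5 is identical in both genes, and most differences lie in exons 3 and 4, with 7 of 61 and 12 of 96 positions. Exon 4 of each gene, with the differing bases in capitals, and exon 5 are shown because reads can be assigned to Krt6b by the former and not by the latter (mm9, 5′ to 3′).
Krt6a exon 4, chr15:101522912-101523007: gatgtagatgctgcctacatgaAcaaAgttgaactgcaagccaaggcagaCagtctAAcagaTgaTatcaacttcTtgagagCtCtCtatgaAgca
Krt6b exon 4, chr15:101508731-101508826: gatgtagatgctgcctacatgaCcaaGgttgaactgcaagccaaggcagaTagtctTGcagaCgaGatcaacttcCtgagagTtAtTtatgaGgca
Exon 5 of both, Krt6a chr15:101522619-101522783, Krt6b chr15:101508440-101508604: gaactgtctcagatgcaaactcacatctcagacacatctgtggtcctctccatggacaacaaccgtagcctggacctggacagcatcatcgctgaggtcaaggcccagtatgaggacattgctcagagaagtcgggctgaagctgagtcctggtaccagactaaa
Of all 50-base windows of the models, 49.9% of those of Krt6a and 50.05% of those of Krt6b also occurred in another gene model. How reads that map to several places were counted is not given in the sources used here, so the split between Krt6a and Krt6b is uncertain. In Krt16 (chr11:100107406-100110216, minus strand) 12.4% of the windows were shared with Krt14, which in every library was far more abundant, and none were shared in Krt1, Krt10, Krt4 and Krt13.

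In SFM, Krt6a stood at 1237, 2307, 724 and 1042 TPM at P2, P4, P10 and P25, and in SCM at 1219 and 1179 TPM at P10 and P25. The IMOK replicates gave 581, 902 and 1111 TPM. The lines overlapped, the P4 library was the highest and IMOK replicate 1 the lowest. By level Krt6a ranked between 81 and 184 of the 23366 entries in a library, among the most abundant transcripts of both lines.

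Krt6b was read at a few TPM in most libraries. In SFM it stood at 3.29, 7.62, 6.998 and 10.3 TPM at P2, P4, P10 and P25, and in SCM at 42.2 TPM at P10 and 3.13 TPM at P25. The IMOK replicates gave 5.56, 1.45 and 1.12 TPM. P10 in SCM stood above all others, with the remaining mSGc libraries overlapping only with IMOK replicate 1.

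In SFM, Krt16 stood at 62.9, 118, 34.2 and 70.2 TPM at P2, P4, P10 and P25, and in SCM at 119 and 26.1 TPM at P10 and P25. The IMOK replicates gave 23.9, 7.64 and 9.41 TPM. Every mSGc value lay above every IMOK value, but P25 in SCM and IMOK replicate 1 were close. The mean was 71.6 ± 39.7 TPM (SD, n = 6) in mSGc and 13.7 ± 8.94 TPM (SD, n = 3) in IMOK. Replicate 1 held more Krt6b and Krt16 and less Krt6a than the other IMOK replicates, next to its higher Acta2, whose part in these values was not tested.

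As a share of the summed TPM of all 52 keratin entries, the 7 keratins made up 4.23% to 7.50% in mSGc and 4.16% to 9.10% in IMOK, most of it Krt6a, at 3.81% to 7.06% and 3.85% to 8.90%. The rest was mainly Krt5, Krt14, Krt17, Krt8, Krt18 and Krt7. Per length, Krt6a and Krt6b together were 10.6 to 45.4 times as abundant as Krt16 in mSGc, and 24.5, 118 and 118 times in the IMOK replicates. Reads assigned to Krt6b were 3.31% of the Krt6a and Krt6b counts at P10 in SCM (95% exact binomial interval 3.06% to 3.59%). They were 0.948% (0.743% to 1.19%) at P10 and 0.970% (0.840% to 1.12%) at P25 in SFM, and at most 0.326% in the other mSGc libraries. In IMOK they were 0.939% (0.770% to 1.13%) in replicate 1 and 0.159% and 0.0993% in replicates 2 and 3. These intervals cover counting error only.

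**Figure D2:**
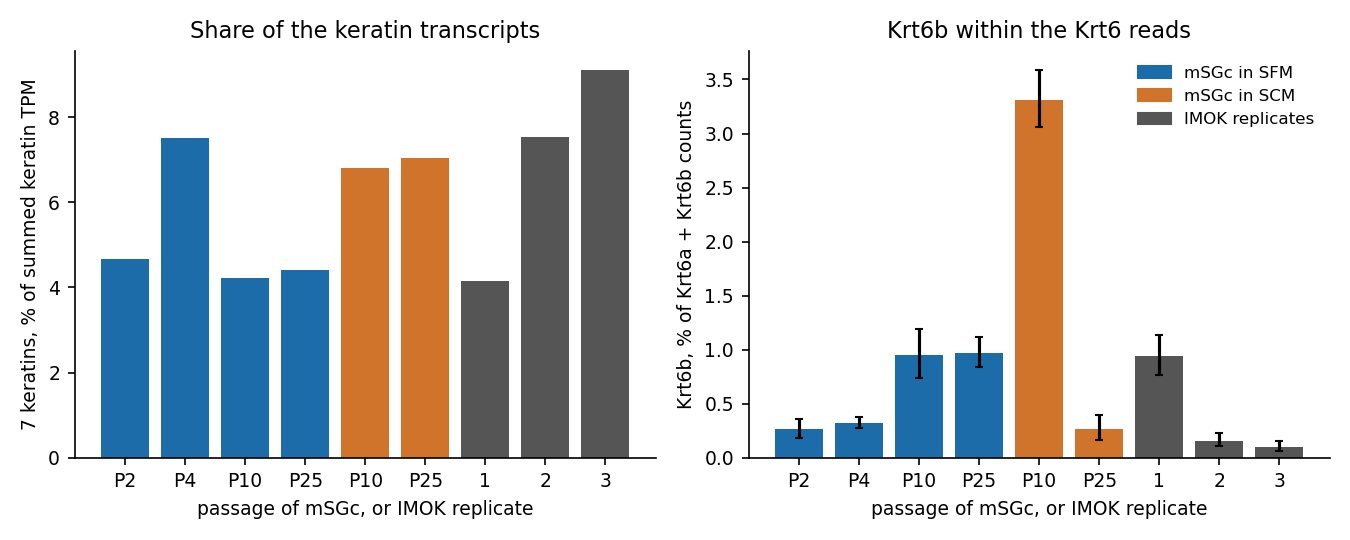
Left, share of the 7 keratins in the summed TPM of all keratins, in percent, per library; right, Krt6b as a percent of the Krt6a and Krt6b counts with 95% exact binomial intervals for counting error, bars coloured by mSGc medium or IMOK. The shares on the left run from 4.16% to 9.10% with both lines mixed, and on the right P10 in SCM stands alone at 3.31%.

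The first comparison asked how the keratins differ between the salivary line and the oral keratinocytes, with all 6 mSGc against 3 IMOK libraries. The lines also differ in their medium and in the experiment they come from, and these cannot be told apart. The 6 mSGc libraries, of different passages and media, were pooled in this fit as if they were replicates. Higher in mSGc were Krt4 and Krt16, 2 of the 6 keratins that passed the filter on low counts and were tested, against a background of 14.9% of 12885 genes called in either direction (edgeR's quasi-likelihood test, Benjamini-Hochberg adjusted p under 0.05). Krt16 was higher by 2.65 ± 0.58 (SE) on the log2 scale, with an edgeR adjusted p of 0.0151. The call was kept without IMOK replicate 1, with a log2 difference of 3.22 and an adjusted p of 0.0153. It was lost without replicate 2 or replicate 3, where the adjusted p was 0.0747 and 0.0667. Calls over all genes also fell there, from 1918 to 738 and 943. For Krt4 the edgeR adjusted p was 0.0429, and as IMOK held 4 counts in all, the fitted change depends on the prior count. The ratio of summed counts, each over its library totals, was 378, with a counting interval of 147 to 1389, and it was 52.8 (20.3 to 196) for mSGc in SFM and 1254 (489 to 4608) for mSGc in SCM. That call was lost when P4 in SFM, P10 in SCM, P25 in SCM or any 1 IMOK replicate was left out, with adjusted p from 0.0579 to 0.151, and with limma voom, where it was 0.324. The other 4 tested keratins did not pass. Krt10 had a log2 difference of -0.90 ± 0.31 and an adjusted p of 0.0738, Krt6b 2.39 ± 0.92 and 0.107, Krt13 2.15 ± 1.11 and 0.221, and Krt6a 0.78 ± 0.39 and 0.204. The Krt13 difference was 0.44 with mSGc in SFM only and 1.41 without P10 in SCM, and that of Krt6b was 1.74 and 1.57.

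Levels of Krt10, Krt4 and Krt16 did not overlap between the lines, 3 of the 6 tested keratins, where 22.3% of the 12885 tested genes showed no overlap. For Krt4 this rested on 0.204 TPM from 2 counts at P10 in SFM against 0.165 TPM from 3 counts in IMOK replicate 1. Both lay at or under the limit of 3 counts, so for Krt4 these 2 libraries cannot be told apart. In an exact two-sided permutation test of log2(TPM + 1), where levels that do not overlap give the smallest p that 6 against 3 libraries allow (0.0238), Krt6b, Krt6a, Krt13 and Krt1 gave exact p of 0.0714, 0.190, 0.405 and 0.476. These are unadjusted, for 7 genes. With DESeq2's Wald test 4 keratins were called, Krt4, Krt16 and Krt6b as higher and Krt10 as lower, the last with an adjusted p of 0.0259. Over all genes DESeq2 called 2900 of 12885. Krt10 was also called as lower by limma voom (adjusted p 0.0348) and by edgeR over genes with at least 10 counts in every library (0.0422). These fits called 2142 of 12885 and 1358 of 10488 genes. Krt4, Krt6b and Krt16 are also on a list of mSGc genes that the study chose in part on these libraries, so that list is not independent evidence of their direction.

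The study set its P10 mSGc data against IMOK, which it states were at that passage too. It also used a fibroblast and a B lymphocyte line. The fit of all mSGc above holds other passages as well. Here only the P10 libraries, in SFM and in SCM, were pooled against IMOK. None of the 5 keratins tested were called, against a background of 4.2% of 13018 genes. An unadjusted edgeR p under 0.05 was held by 3 keratins, and by 3244 of all genes. DESeq2 called those 3 keratins, and 2231 of all genes. The 3 keratins are Krt6b with a log2 difference of 3.38 ± 0.93, Krt13 with 3.06 ± 0.89 and Krt16 with 2.67 ± 0.63. Their edgeR adjusted p were 0.0981, 0.108 and 0.0743. Krt10 stood at -0.64 ± 0.44 and Krt6a at 0.29 ± 0.42. Without IMOK replicate 1, edgeR called Krt6b and Krt16 with adjusted p of 0.0252 and 0.0194, but also 3415 of all 12602 genes tested there. Without P10 in SCM, which leaves 1 mSGc library assumed to vary like IMOK, the log2 differences of Krt6b, Krt13 and Krt16 were 1.69, 1.54 and 1.62, with adjusted p of 0.446, 0.475 and 0.326 and none at an unadjusted p under 0.05. Krt4, at 2 counts in 1 of the 2 P10 libraries, did not pass the filter.

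**Figure D3:**
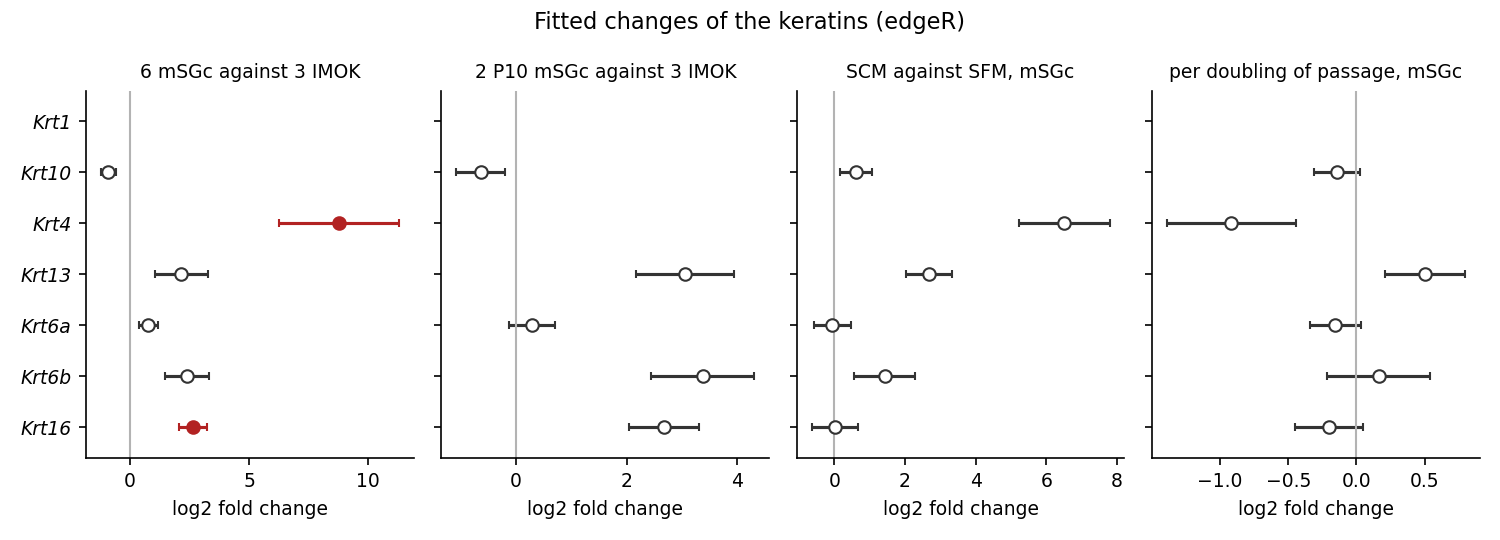
Fitted log2 fold changes of the keratins from edgeR in 4 comparisons, each with its own axis range; bars are standard errors, filled red points have an adjusted p under 0.05, positive values are higher in mSGc, in SCM or at later passage, and keratins that were not tested have no point. The red points are Krt4 and Krt16 in all mSGc against IMOK; the Krt4 estimate there rests on 4 IMOK counts.

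The next comparison asked what the medium changes. At P10 and at P25 the SCM and SFM libraries can be set side by side, 1 library each, which has no replicate check. Krt4 in SCM was 402 times its SFM value in counts over library totals at P10, with a counting interval of 111 to 3320 since SFM held 2 counts, and 225 times (108 to 561) at P25. Krt13 was 4.83 times (4.17 to 5.61) and 5.57 times (4.64 to 6.70) its SFM value. Both partners of the mucosal pair were thus higher in SCM at both passages, where 3.32% of 12609 genes were at least 2-fold higher in SCM both times. These fold counts over genes use TPM + 0.1.

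Krt6b and Krt16 went in opposite directions at the 2 passages. At P10, Krt6b in SCM was 5.59 times (4.37 to 7.24) and Krt16 3.22 times (2.80 to 3.71) its SFM value. At P25 the SFM library was the higher one, by 3.5997 times (2.31 to 5.88) for Krt6b and 2.95 times (2.45 to 3.57) for Krt16. Of the 12609 genes 1.02% did the same, and Krt6b and Krt16 were the 2 keratins among them. Krt6a was 1.56 times (1.52 to 1.60) and 1.03 times (1.01 to 1.06) its SFM value, and Krt10 1.74 times (1.14 to 2.73) and 1.24 times (0.716 to 2.08). At least 2-fold apart in TPM were 4 of the 7 keratins at P10, against 17.2% of 12392 genes, and the same 4 at P25, against 10.9% of 11647 genes. Only genes with at least 1 TPM in either library were counted, which Krt1 did not reach at either passage.

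**Figure D4:**
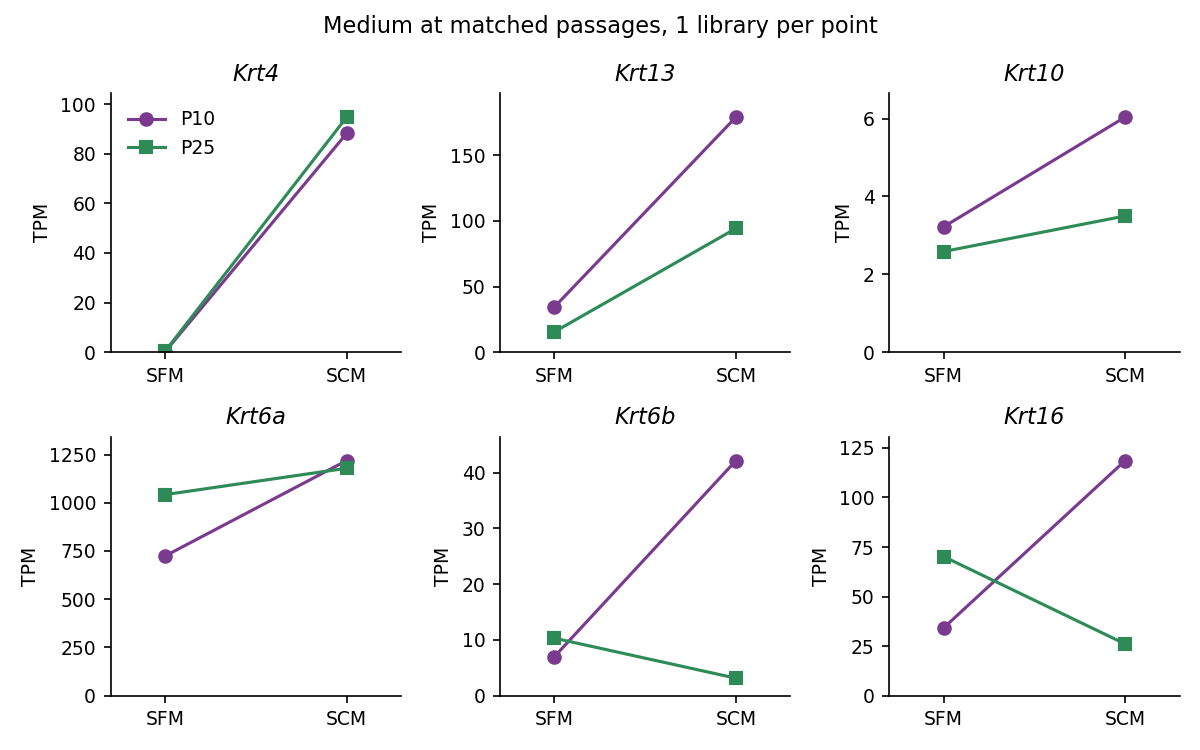
Levels in TPM of 6 keratins in SFM and SCM at P10 (circles) and P25 (squares), 1 library per point, with linear axes from 0 and a line joining the libraries of 1 passage. Krt4 and Krt13 are higher in SCM at both passages, while for Krt6b and Krt16 the lines of P10 and P25 cross.

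Fitted over all 6 mSGc libraries with the log2 passage number as a second term, none of the 6 keratins tested were called for medium, against a background of 0.0241% of 12451 genes. Krt4 and Krt13 had an unadjusted p under 0.05, as did 1018 of the 12451 genes. Their log2 changes were 6.51 ± 1.28 and 2.68 ± 0.64, with edgeR adjusted p of 0.177 and 0.254. With P10 and P25 alone and passage as a block, both were called by edgeR, Krt4 with a log2 change of 7.998 and an adjusted p of 0.00144, and Krt13 with 2.34 and 0.00942. That fit called 123 of 11938 genes. It has 1 library per condition and no replicate, so its p rest largely on a spread borrowed from other genes. DESeq2 called the same pair, with adjusted p of 0.000492 and 0.0102, among 271 of 12451 genes. In the edgeR fit of all 6 libraries, 7 of 11 other keratins followed and tested had an unadjusted p under 0.05. Among them were the simple keratins Krt7, Krt18 and Krt19, with log2 changes of 3.65, 1.72 and 4.03. The basal keratin Krt5, at -1.66, was another. Their edgeR adjusted p were 0.117, 0.181, 0.309 and 0.398, in that order. Krt10 stood at 0.61 ± 0.46, Krt6b at 1.42 ± 0.86, Krt6a at -0.06 ± 0.52 and Krt16 at 0.0083 ± 0.65, all with an adjusted p of 0.774 or more. The sign of Krt6a, Krt6b and Krt16 depended on the libraries included, and without P10 in SCM their log2 changes were 0.14, -1.92 and -1.38.

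Passage in SFM was followed from P2 to P25. From P2 to P4, Krt4, Krt6b, Krt6a, Krt16 and Krt13 were 2.96 times (2.05 to 4.403), 2.50 times (1.75 to 3.65), 2.01 times (1.98 to 2.05), 2.02 times (1.83 to 2.23) and 1.95 times (1.296 to 3.004) their P2 value in counts over library totals. The P4 library thus held more of these 5 keratins than P2. Over the same step the summed level of 3 myoepithelial markers went from 569 to 108 TPM and that of 6 fibroblast markers from 22.2 to 0.660 TPM, and their part in the keratin values was not tested. From P4 to P10 the keratins parted. Krt4 was 42.4 times (11.6 to 353) higher at P4, Krt16 3.49 times (3.05 to 4.01) and Krt6a 3.24 times (3.16 to 3.32), whereas Krt13 was 4.08 times (3.19 to 5.24) higher at P10. From P10 to P25, Krt16 and Krt6a were 2.18 times (1.90 to 2.52) and 1.53 times (1.49 to 1.57) higher at P25, and Krt13 2.09 times (1.70 to 2.57) higher at P10.

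In SCM, Krt4 and Krt6a were within 1.13 times of each other at P10 and P25. Krt6b was 12.8 times (8.40 to 20.6) and Krt16 4.34 times (3.61 to 5.25) higher at P10. The share of all genes at least 2-fold apart in TPM was 15% from P2 to P4, 20% from P4 to P10 and 23.4% from P10 to P25 in SFM, and 20.7% from P10 to P25 in SCM. Per doubling of passage in the fit with medium, none of the 6 keratins were called and none had an unadjusted p under 0.05, against a background of 0.49% of 12451 genes called by edgeR. DESeq2 called 700 genes and none of these keratins, with 2 keratins and 1905 genes at an unadjusted p under 0.05. The largest estimates were -0.92 ± 0.47 for Krt4 and 0.50 ± 0.29 for Krt13, with edgeR adjusted p of 0.465 and 0.522.

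Other genes of squamous differentiation were counted from lists. Of 30 genes of suprabasal differentiation 19 were tested between all mSGc and IMOK, and 3 were higher and 0 lower in mSGc by edgeR's test, a share near the 14.9% called over all genes. They were Calml3, a calmodulin-like protein of stratified epithelia, at 1.56 to 16.0 TPM against at most 0.247 TPM (adjusted p 0.00758), the keratinocyte differentiation gene Krtdap with a log2 difference of 3.37 (0.0258), and the cornified envelope gene Cnfn, at 0 to 29.0 TPM against at most 0.162 TPM (0.0464). The list's median log2 difference was 1.42, against 0.0023 over all genes. It was 1.20 for the 4 basal and 1.63 for the 5 simple keratins tested, so such a shift was not particular to this list. Calml3 and Cnfn held at most 3 counts in each IMOK library. Set to the bound that 3 counts allow, both stayed above the list's median, so the median could not move. Of 24 regulators tested, 6 were higher and 2 lower, with a median of 0.68. Pitx1 (1.05, adjusted p 0.00431), Tfap2a (0.97, 0.00725) and Tfap2c (2.44, 0.0158), which encode transcription factors of surface epithelia, were higher, and Sox2 (-0.83, 0.0187) was lower. Of 19 wound and stress genes tested, 2 were higher and 1 lower, again near the 14.9% over all genes, with a median of 0.70. The EGF receptor ligand Ereg was at 11.8 to 35.3 TPM in mSGc and at most 0.0603 TPM in IMOK, the protease inhibitor gene Serpinb2 was higher by 3.94 with an adjusted p of 0.0168, and Tgfa, another EGF receptor ligand, was lower (-0.94, adjusted p 0.00589).

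Of the 4 basal keratins Krt15 and Krt14 were higher in mSGc, with log2 differences of 4.63 and 1.27 and edgeR adjusted p of 0.0177 and 0.0297. None of the 5 simple keratins tested were called, 3 having an unadjusted p under 0.05, as did 3922 of the 12885 genes. For P10 mSGc against IMOK, 1 of 19 suprabasal genes (Calml3), 3 of 25 regulators (Notch1, Pitx1 and Tfap2a), 1 of 19 wound and stress genes (Ereg) and 1 of 4 basal keratins (Krt15) were called, all higher, where 4.2% of all genes were called. For medium and for passage edgeR called 0 genes of each list. For medium, 8 of 19 suprabasal genes, 7 of 23 regulators and 1 of 19 wound and stress genes had an unadjusted p under 0.05. So did 1 of 4 basal keratins and 4 of 5 simple keratins. For passage these counts were 8, 6, 4, 0 and 5, out of the same numbers tested. Over all 12451 genes, 1018 were under 0.05 for medium and 1648 for passage.

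Of 2566 genes that reach 10 TPM and span at least 2 on the log2(TPM + 1) scale over the 9 libraries, those whose levels most resembled each keratin were read from Pearson's r on that scale, as a description, since the libraries share medium and line. Krt4 was most like Id2 (r = 0.95), Ednra (0.94) and Vipr1 (0.93), and Krt13 like Dhrs3 (0.94), L1cam (0.92) and Mknk2 (0.90). Among the genes most like Krt6a were Slc25a48 (0.90) and Tubb3 (0.88). Krt6b was most like Serpinb11 (0.90), Selenbp1 (0.89) and Ntrk3 (0.87), and Krt16 like Cryab (0.92), Bmyc (0.91) and 1810019D21Rik (0.91). Over the 6 mSGc libraries, with 1161 such genes, the closest were Msln for Krt4 (r = 0.96), Eya2 for Krt13 (0.98), Epgn for Krt6a (0.97), Slit2 for Krt6b (0.98) and Tnni2 for Krt16 (0.94). Between the keratins themselves, r over the 9 libraries was 0.81 for Krt6b with Krt16, 0.69 for Krt4 with Krt13 and 0.52 for Krt6a with Krt16. The named genes changed with the measure of likeness, and at most 1 of the 3 per keratin was also among the top 3 by Spearman's rho over the 9 libraries.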

How the data were processed

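RNA-seq libraries of 6 mSGc conditions and 3 IMOK replicates were used. The authors deposited raw counts per gene entry and gene lengths in 2 tables, without normalization; the submitters' processing notes name TopHat2 2.1.1, Bowtie2 2.2.6, featureCounts 1.5.1, DESeq2 1.12.4 and mm9. The handling of reads with several positions, and strandedness, are not given in the sources used here. The tables were joined by gene entry, and TPM was computed from counts and lengths.

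Counts were tested in R 4.3.3 with edgeR 4.0.16 (quasi-likelihood test, TMM, filterByExpr, Benjamini-Hochberg adjustment over all genes tested, threshold 0.05), limma 3.58.1 and DESeq2 1.42.0, and levels and sequences were handled in Python 3.11.15 (scipy 1.17.1, numpy 2.4.6, pandas 2.3.3). Standard errors were obtained as the size of the log2 change over the root of its F statistic. Fits were of all mSGc and of P10 mSGc against IMOK, and within mSGc of medium and log2 passage number jointly. Ratios between single libraries have 95% exact conditional intervals, which cover counting error only, as counts are of reads and not molecules. Sequences are from NCBIM37 (mm9), gene models from the deposited tables and the Krt13 start from RefSeq. The fits were also run on simulated counts, drawn with the same spread for every gene. That run does not show how the fits hold with the spread of these libraries.

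The members and lists were chosen with earlier results of these data known. Named were the 7 keratins, other keratins and list genes past the threshold, at most 4 per list and comparison by smallest p, and per keratin the 3 genes with the highest Pearson's r. A gene that this rule names is not reported here. The alternatives tried were the Wald test of DESeq2, no TMM factors, limma voom, a minimum of 10 counts per library, no filter, summed Krt6a and Krt6b reads, each library left out, mSGc in SFM only, a passage block over P10 and P25, untransformed passage and TMM-scaled levels. Libraries of other cells and tissues were not analysed here.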

Additional observations from a re-analysis of the deposited data

Results flagged for a closer look

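Krt6a at P4 in SFM, 2307 TPM, was the highest of the 6 mSGc libraries, far enough from the next value to stand apart by Dixon's test at the 95% level. Krt6b at P10 in SCM, 42.2 TPM, stood apart from the other 5 mSGc libraries by the same test. Such a test flags about 1 in 20 groups by chance, and the 6 libraries differ in passage and medium.

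The log2 ratio of SCM over SFM, on TPM + 0.1, differed between P10 and P25 by 4.26 for Krt6b and by 3.22 for Krt16, with the P10 ratio above 1 and the P25 ratio under 1 for both genes. With 1 library per condition this difference was not tested.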

How the results depend on the processing

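No paired analysis was possible because no mSGc condition has a second replicate to pair with IMOK by number; the media were matched by passage instead. For all mSGc against IMOK, 2 keratins were called. DESeq2 called 4 keratins and 2900 genes, and mSGc in SFM only gave 1 keratin and 1287 genes. Leaving out 1 library gave 0 to 2 keratins. It was 0 without IMOK replicate 2 or 3, where genes called fell from 1918 to 738 and 943. For P10, 0 were called, and DESeq2 called 3 keratins and 2231 genes. Leaving out 1 IMOK replicate gave 0 to 2, the 2 without replicate 1, where 3415 genes were called. For medium, 0 were called. DESeq2 and P10 and P25 alone with passage as a block each called 2, among 271 and 123 genes. Leaving out 1 SFM library gave 0 to 1, the 1 being Krt13 without P10 in SFM. There the genes called rose from 3 to 58, of 12455 tested. For passage, 0 were called under every alternative. The mean of Krt10 in IMOK was 8.03 TPM and 7.14 with TMM scaling.

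These log2 changes turned sign, and the cause was not tested. Krt6a in P10 mSGc against IMOK was -0.051 to 0.55 with 1 library left out, the lowest without P10 in SCM. For medium, Krt6a was 0.009995 without TMM, 0.057 with voom, 0.31 with the block and -0.36 to 0.17 with 1 library left out. Krt6b was -1.92 to 2.19 and Krt16 -1.38 to 1.09 with 1 library left out, and Krt16 was -0.0039 without a filter. For passage, Krt6b was -0.27 to 0.41 with 1 library left out and -0.0015 on untransformed passage. In IMOK, where Krt4 held 4 counts, depth limits the ratio, and Krt1 was under the limit in every library.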
